A study of Homo sapiens with 12 samples.

Results

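CDCA7 stood apart in 1 of 4 myeloma lines, and the question was whether the genes it works with moved with it. CDCA7 is a zinc finger protein that brings the remodelling ATPase HELLS to nucleosomes, which opens them to the enzymes that copy CpG methylation after replication. UHRF1 reads hemimethylated CpG sites and recruits DNMT1, the maintenance methyltransferase, while DNMT3A and DNMT3B methylate unmodified DNA and carry PWWP domains that bind methylated H3K36. TET2 and TET3 oxidise the methyl group. CDCA7, HELLS, DNMT3B and ZBTB24, a zinc finger activator of CDCA7, are the genes mutated in ICF syndrome, an immunodeficiency with hypomethylated centromeric repeats. CDCA7L is a paralogue of CDCA7 known to bind MYC. These 10 genes were taken with every probe that the array held for them, out of 18665 genes on it, and 9 of the 10 had a probe. The set was chosen by the measured level of CDCA7, low in 1 line alone, so the CDCA7 values are a description and carry no test, and the other members were added for their known roles.

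The 4 lines all derived from KMS11, a multiple myeloma line in which a t(4;14) translocation drives 1 allele of MMSET (NSD2), an H3K36 methyltransferase, from the immunoglobulin locus. In NTKO the wild type MMSET allele was inactivated and the overexpressed allele kept. TKO1 and TKO2 are separate clones in which the reverse was done, so that they lack the overexpressed allele and keep the wild type one. WT is the parental line with both alleles, so that NTKO and WT are MMSET-high and the TKO clones MMSET-low. The labels do not say how many clones NTKO stands for, and TKO below means both TKO clones. Each line was measured on 3 expression arrays, 12 in all. The labels do not say that replicates were separate cultures, so p-values measure the spread between arrays, and the number of arrays limits the precision.

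Levels are log2 intensities after background correction and quantile normalisation, so a difference of 1 is a doubling. Mean intensity per array ran from 181 to 300 and 14166 to 16684 probes were detected. Arrays of the TKO clones and of WT correlated with the others of their line at 0.984 to 0.995 across 15596 detected probes. NTKO replicates 1 and 3 correlated at 0.993, whereas NTKO replicate 2 correlated with them at 0.945 to 0.948 and with the WT arrays at 0.974 to 0.978. This array stood apart from its own line, so results against NTKO are given with and without it. By its 1 detected probe of 4, NSD2 itself averaged 6.27 ± 0.17 in NTKO (SD, n = 3), 5.67 ± 0.23 over both TKO clones (n = 6) and 6.36 ± 0.19 in WT (n = 3). The difference of NTKO from TKO, 0.59 (limma, adjusted p = 0.0166), ran the way the genotypes run, although where the probe lies relative to the disrupted part is not known here. Each of the 6 plasma cell markers was detected on every array by at least 1 probe, while the other SDC1 probes were detected on 2 arrays and on none. At an adjusted p under 0.05 (limma) 3 of the 6 were higher in NTKO than in TKO and 1 lower, where 13.7% and 13.8% of all probes were. Of 9 markers of other cell types, CD3D, CD3E, CD14, NKG7 and KRT8 were detected on no array. LYZ was detected on 5 arrays by 1 probe and on 1 array by another, and COL1A1 on 1 array. PECAM1 was detected on all 12 arrays, with a mean level of 5.75 in NTKO, 6.2 in TKO and 6.06 in WT. The erythroid HBB was also detected on all 12 and differed between lines, with a mean level of 5.47 in NTKO, 7.57 in TKO and 6.33 in WT. Its part in the results below was not tested.

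A promoter window is shown for each of 4 members, with CDCA7 as the gene in question. HELLS and UHRF1 are the members called lower in NTKO than in TKO, and DNMT3B is one called higher. Each window spans 250 bases before to 50 after the annotated start, taken from RefSeq on GRCh38.p14. Capitals mark an E2F-type site, the kind of element through which many replication genes are switched on at the start of S phase. It was searched as TTTCCCGC, TTTCGCGC, TTTGCCGC or TTTGGCGC on both strands, so that GCGGGAAA is TTTCCCGC and GCGCCAAA is TTTGGCGC read on the other strand. CDCA7 lay at chr2:173354622-173354921, HELLS at chr10:94545538-94545837, UHRF1 at chr19:4909251-4909550 and DNMT3B at chr20:32779602-32779901, all on the plus strand.
CDCA7: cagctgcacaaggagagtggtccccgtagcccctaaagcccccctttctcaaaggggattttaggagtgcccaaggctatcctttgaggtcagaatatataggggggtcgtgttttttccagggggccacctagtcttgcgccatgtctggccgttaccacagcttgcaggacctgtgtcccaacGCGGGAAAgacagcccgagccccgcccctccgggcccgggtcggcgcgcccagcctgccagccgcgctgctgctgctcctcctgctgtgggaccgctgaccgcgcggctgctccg
HELLS: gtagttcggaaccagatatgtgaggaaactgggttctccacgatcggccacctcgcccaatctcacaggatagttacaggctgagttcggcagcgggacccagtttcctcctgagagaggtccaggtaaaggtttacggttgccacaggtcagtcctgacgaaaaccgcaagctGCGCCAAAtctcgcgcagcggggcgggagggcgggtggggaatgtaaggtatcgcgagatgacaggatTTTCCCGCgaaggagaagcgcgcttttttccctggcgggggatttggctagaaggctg
UHRF1: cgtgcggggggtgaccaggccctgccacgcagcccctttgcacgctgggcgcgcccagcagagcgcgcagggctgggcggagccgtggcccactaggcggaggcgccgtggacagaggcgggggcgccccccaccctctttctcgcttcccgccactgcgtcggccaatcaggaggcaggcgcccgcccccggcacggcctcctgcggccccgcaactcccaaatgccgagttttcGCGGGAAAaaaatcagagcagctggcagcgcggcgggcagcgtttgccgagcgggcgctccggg
DNMT3B: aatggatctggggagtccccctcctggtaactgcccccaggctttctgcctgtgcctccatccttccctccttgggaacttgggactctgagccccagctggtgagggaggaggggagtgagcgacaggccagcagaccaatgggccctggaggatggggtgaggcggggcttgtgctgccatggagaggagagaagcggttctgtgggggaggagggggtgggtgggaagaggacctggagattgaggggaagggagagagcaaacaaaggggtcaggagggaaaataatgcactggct

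The match began at −65 from the start in CDCA7, at −76 and −8 in HELLS and at −14 in the UHRF1 window shown. For a gene with several windows the one shown was picked for its number of matches, so the match in the UHRF1 window followed from that choice. A second of the 3 UHRF1 windows held TTTCGCGC at −160 and the third held none. DNMT1 held TTTCGCGC at −2. All 10 members had at least 1 window in the table, 19 windows in all, and 5 of the 19, of 4 members, held the site, against 3.31% of all 35116 windows of this length. No match overlapped another. The E-box CACGTG, bound by MYC, was found in 5 of the 19 windows, of 4 members (ZBTB24, DNMT3A, TET2 and TET3), against 7.26% of all windows, and not in those printed. The DNMT3A windows with an E-box overlapped each other, so the same E-box can be counted in both. The only DNMT3B window listed was poor in CpG, with 3 CpG dinucleotides against a median of 14 over all windows. The printed windows of CDCA7, HELLS and UHRF1 held 20, 22 and 36. Starts of DNMT3B outside its window were not searched, so its values need not hold for the start used in these cells. A match is a run of letters and does not show that a factor binds there.

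CDCA7 was low in NTKO alone. It lay at 7.71, 8.66 and 7.56 on the NTKO arrays, at 10.4, 10.3 and 10.57 in TKO1, at 10.11, 10.37 and 10.36 in TKO2, and at 10.21, 10.43 and 10.32 in WT. No NTKO array reached any of the other 9, while the ranges of the other 3 lines overlapped one another. In the order of means, NTKO (7.98 ± 0.6) came far below TKO2 (10.28 ± 0.15), WT (10.32 ± 0.11) and TKO1 (10.42 ± 0.14; SD, n = 3 each), and the last 3 differed by less than their spread. The difference was −2.37 against TKO, a 5.18-fold lower level, and −2.34 against WT, or −2.72 and −2.69 without NTKO replicate 2. That array was the highest of the NTKO arrays, at −1.66 from the WT mean, where the others were at −2.61 and −2.76. A further CDCA7 probe was detected on no array, so the pattern rests on 1 probe.

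**Figure D1:**
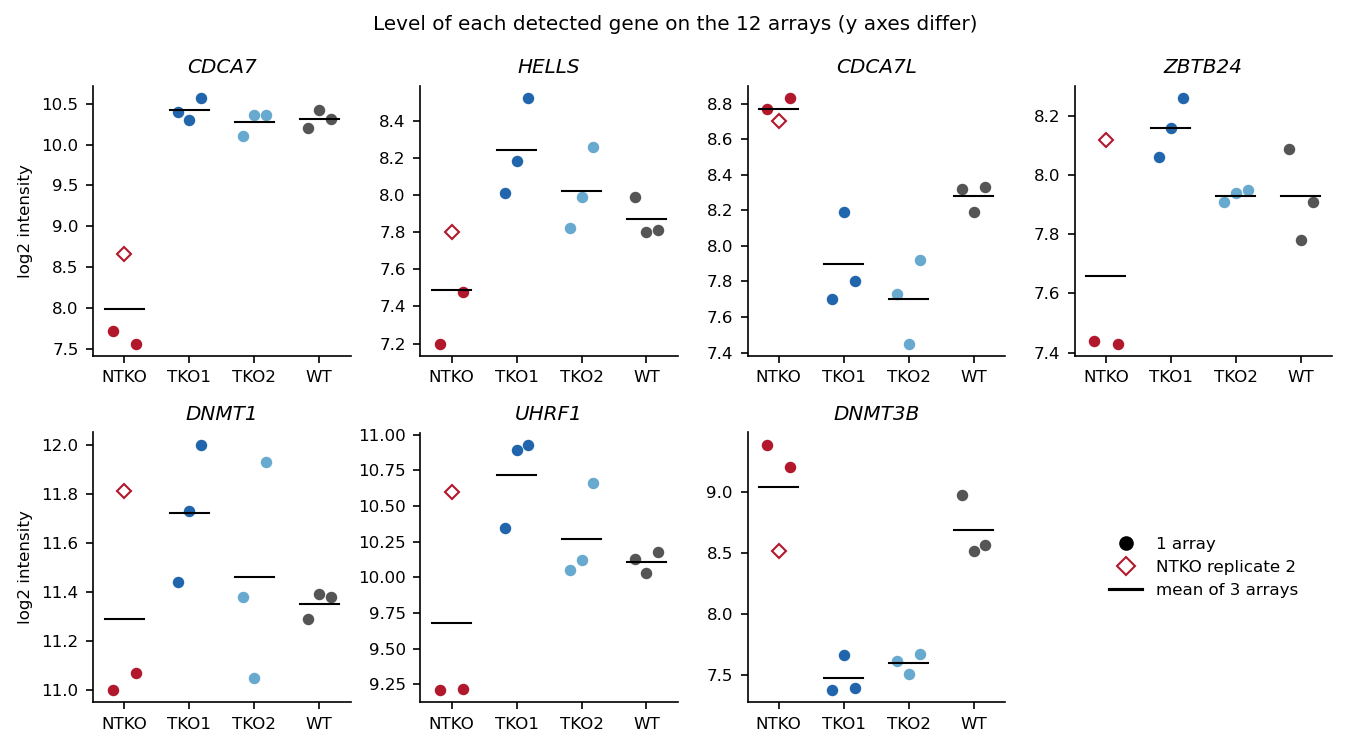
Log2 intensity (y axis, a separate scale per panel) of the 7 detected genes on each array of NTKO, TKO1, TKO2 and WT (x axis), with points for arrays, an open diamond for NTKO replicate 2 and a bar for the mean of 3 arrays. CDCA7 is at 7.56 to 8.66 in NTKO and at 10.11 or above on every other array, while DNMT3B is lowest in both TKO clones.

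Of the other 9 members, 6 had a probe detected on all arrays of at least 1 line and could be tested. Between NTKO and TKO 4 of the 6 passed, HELLS and UHRF1 lower and CDCA7L and DNMT3B higher, where 27.5% of all tested probes passed (13.7% higher and 13.8% lower). ZBTB24 and DNMT1 did not pass. Between NTKO and WT 0 of the 6 passed (limma), against 7.2% of all probes, and by its representative probe 1 of them, CDCA7L, was below 0.05 without adjustment, as was the second HELLS probe. Between TKO and WT 2 passed, CDCA7L and DNMT3B, both lower, against 15.8% of all probes (5.87% higher and 9.93% lower). Between TKO1 and TKO2 0 of the 6 passed, also without adjustment, and 0.718% of all probes did. None of the 6 set NTKO apart from TKO1, TKO2 and WT at once, the pattern of CDCA7, as 1.71% of all probes did. The comparisons share arrays, so they are not independent of each other. Of all calls between TKO and WT 37.1% were rises, and 14.6% when arrays were only centred on their medians, with 40.6% and 15.4% between NTKO and WT.

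HELLS, the partner of CDCA7, was lower in NTKO than in TKO, by much less than CDCA7. Its brighter probe lay at 7.2, 7.8 and 7.48 in NTKO, at 7.82 to 8.52 over the 6 TKO arrays, with a median of 8.1, and at 7.99, 7.8 and 7.81 in WT. NTKO and TKO did not overlap, whereas NTKO replicate 2 reached the level of WT. The difference against TKO was −0.64 ± 0.17 (SE, limma, adjusted p = 0.0105), a 1.55-fold lower level, and against WT −0.37 (adjusted p = 0.248; 95% interval −0.78 to 0.04). Against each clone by itself it was −0.74 for TKO1 (adjusted p = 0.0121) and −0.53 for TKO2 (adjusted p = 0.0665). The second HELLS probe gave −0.82 against TKO (adjusted p = 0.00237) and −0.51 against WT (adjusted p = 0.132). Its levels were 6.02, 6.7 and 6.11 in NTKO, 6.82 to 7.42 in TKO and 6.68 to 7 in WT, so NTKO and TKO were again separate. With NTKO replicate 2 left out both probes also passed against WT, at −0.53 (adjusted p = 0.0343) and −0.73 (adjusted p = 0.00414). Without NTKO replicate 1 the brighter probe no longer passed against TKO (−0.49, adjusted p = 0.087; the alternatives gave adjusted p-values between 0.000839 and 0.087), while the second probe passed in each of the 21 alternatives run for it, with an adjusted p of at most 0.0227, and by the methods' t-test (0.0377).

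CDCA7L was high in NTKO, where CDCA7 was low. This paralogue lay at 8.77, 8.7 and 8.83 in NTKO, at 7.7, 8.19 and 7.8 in TKO1, at 7.73, 7.45 and 7.92 in TKO2, and at 8.32, 8.19 and 8.33 in WT. NTKO was above every array of the other lines, and WT lay between NTKO and most TKO arrays. Its level in NTKO was 1.95 times that in TKO (0.97 ± 0.15, SE, limma, adjusted p = 0.000173). The difference of NTKO from WT was 0.49 (adjusted p = 0.0947; 0.52, adjusted p = 0.0315 without NTKO replicate 2), and that of TKO from WT −0.48 (adjusted p = 0.0384). The call against WT in TKO was lost when any of 7 arrays was left out, TKO1 replicate 1 or 3, TKO2 replicate 1 or 2 or a WT replicate, with an adjusted p of 0.0574 to 0.148.

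ZBTB24, the activator of CDCA7, was at 7.44, 8.12 and 7.43 in NTKO, at 7.91 to 8.26 in TKO (median 8) and at 8.09, 7.78 and 7.91 in WT. NTKO replicates 1 and 3 were the lowest of the 12 arrays, and replicate 2 was among the highest. The difference of −0.38 from TKO did not pass (limma, adjusted p = 0.0915; 95% interval −0.73 to −0.04), nor did −0.26 from WT (adjusted p = 0.413). Leaving out NTKO replicate 2 made them −0.61 (adjusted p = 0.00122) and −0.49 (adjusted p = 0.017), and ZBTB24 then set NTKO apart from all 3 other lines (adjusted p = 0.0277).

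**Figure D2:**
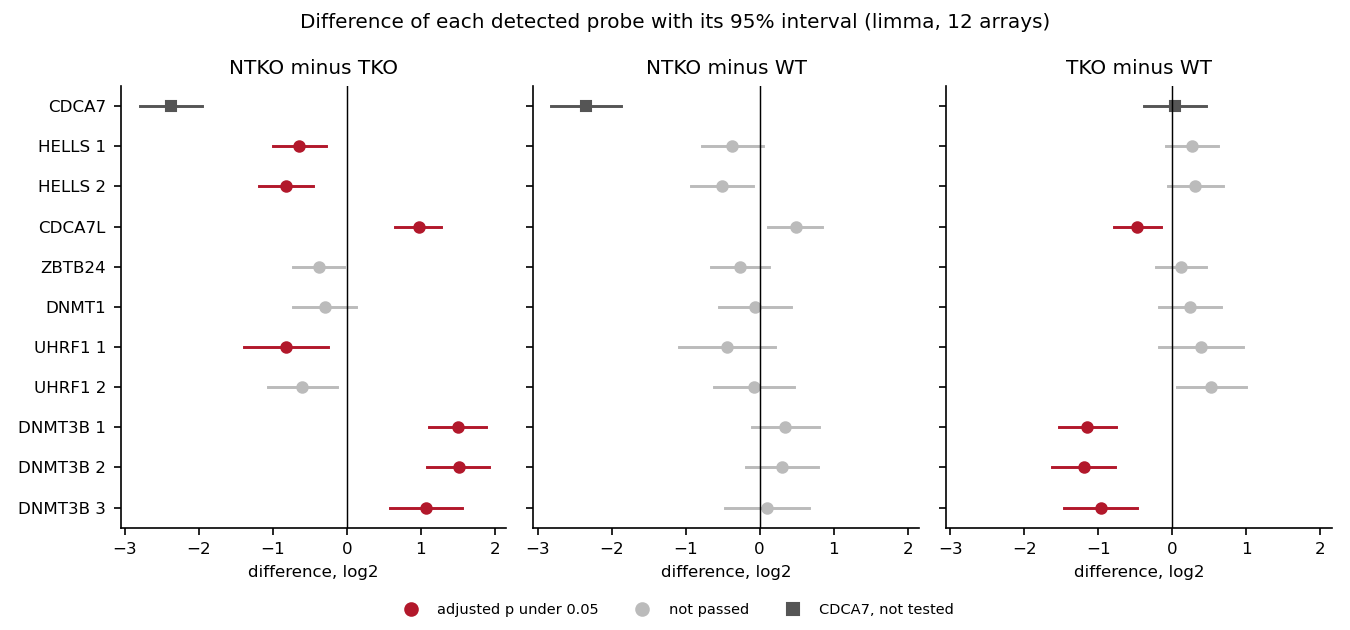
Difference in log2 intensity (x axis) of the 11 detected probes (y axis; numbers tell the probes of a gene apart) for NTKO minus TKO, NTKO minus WT and TKO minus WT, with 95% intervals from limma on 12 arrays. Red points passed at an adjusted p under 0.05, grey points did not, and CDCA7 (square) was not tested. The CDCA7 interval describes the spread between arrays and is no test, since the level of CDCA7 chose the set. HELLS and UHRF1 are left of 0 in NTKO minus TKO, and the 3 DNMT3B probes pass in NTKO minus TKO and TKO minus WT.

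The maintenance enzymes split the NTKO arrays. UHRF1 lay at 9.21, 10.6 and 9.22 in NTKO, at 10.05 to 10.93 in TKO (median 10.5) and at 10.13, 10.03 and 10.18 in WT. Replicates 1 and 3 of NTKO were below all other arrays and replicate 2 was above every WT array. On average UHRF1 was 1.77-fold lower in NTKO than in TKO (−0.82 ± 0.26, SE, limma, adjusted p = 0.0311) and −0.44 from WT (adjusted p = 0.404). Without NTKO replicate 2 the differences were −1.29 (adjusted p = 1.08e-05) and −0.9 (adjusted p = 0.00162). The call against TKO was lost when NTKO replicate 1 or 3, TKO1 replicate 2 or 3, or TKO2 replicate 3 was left out, with an adjusted p of 0.0639 to 0.175. A dimmer UHRF1 probe, detected on 2 of 3 NTKO arrays, differed by −0.6 from TKO (adjusted p = 0.0533; −0.91, adjusted p = 0.00107 without NTKO replicate 2).

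DNMT1, the enzyme that copies methylation onto the new strand, lay at 11, 11.81 and 11.07 in NTKO, 11.05 to 12 in TKO (median 11.59) and 11.29, 11.39 and 11.38 in WT. Its NTKO and TKO ranges overlapped, and the WT range lay inside both. The difference was −0.3 from TKO (limma, adjusted p = 0.286; 95% interval −0.72 to 0.13) and −0.06 from WT (adjusted p = 0.903; −0.55 to 0.43). Without NTKO replicate 2 it was −0.55 from TKO (adjusted p = 0.0175) and −0.32 from WT (adjusted p = 0.244). A DNMT1 change of the size seen for CDCA7 therefore lay outside these intervals.

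**Figure D3:**
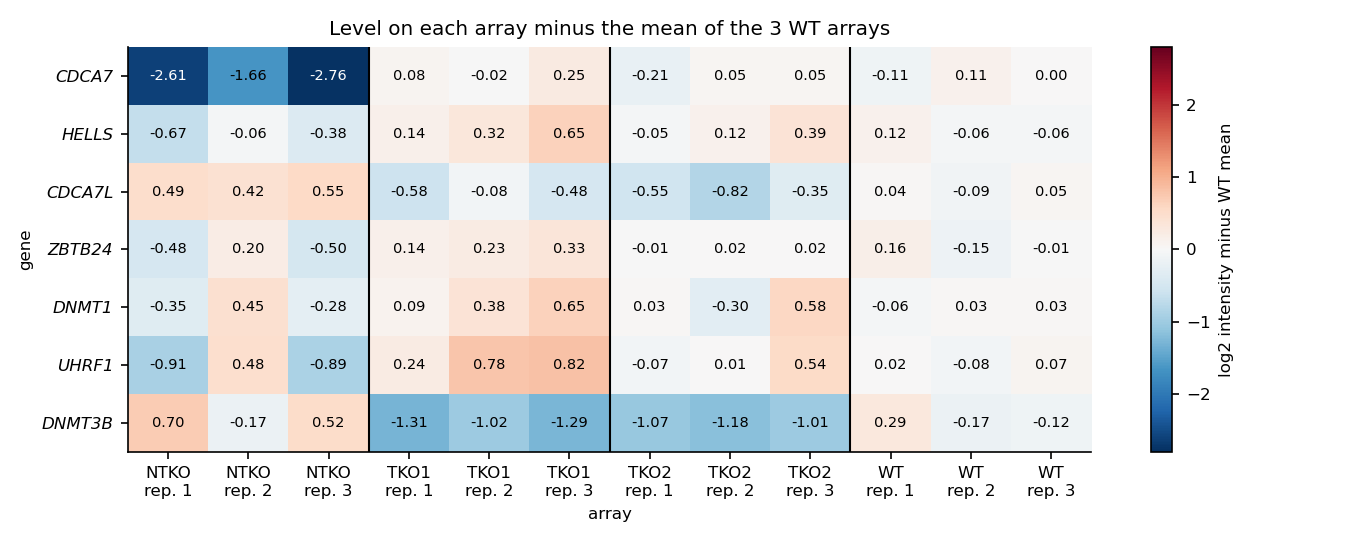
Log2 intensity of the 7 detected genes (rows) on each of the 12 arrays (columns, NTKO at the left and WT at the right) minus the mean of the 3 WT arrays, printed in each cell and coloured from blue (below WT) to red (above WT). NTKO replicate 2 is above the WT mean for ZBTB24, DNMT1 and UHRF1 (0.2, 0.45 and 0.48), where replicates 1 and 3 are below it.

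DNMT3B, a de novo methyltransferase, was low in both MMSET-low clones and not in NTKO. Its brightest probe lay at 9.39, 8.52 and 9.21 in NTKO, at 7.38, 7.67 and 7.4 in TKO1, at 7.62, 7.51 and 7.68 in TKO2, and at 8.98, 8.52 and 8.57 in WT. NTKO and WT overlapped each other, and every TKO array was below both. Its level in NTKO was 2.82 times that in TKO (1.5 ± 0.18, SE, limma, adjusted p = 1.66e-05), and TKO was 2.21-fold below WT (−1.15, adjusted p = 0.000313). NTKO and WT differed by 0.35 (adjusted p = 0.323; 95% interval −0.1 to 0.8). The other detected DNMT3B probes gave 1.51 and 1.07 for NTKO minus TKO (adjusted p = 3.59e-05 and 0.00284) and −1.2 and −0.97 for TKO minus WT (adjusted p = 0.000418 and 0.00836). All 3 probes passed for NTKO minus TKO under each alternative in which they were tested. Without NTKO replicate 2 the brightest probe gave 1.76 against TKO (adjusted p = 7.79e-08) and also passed against WT, at 0.61 (adjusted p = 0.0106). Of 2 further DNMT3B probes, 1 was detected on 5 arrays and 1 on none, so neither was tested.

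The remaining members could not be followed. DNMT3A, the other de novo enzyme, had 3 probes with levels of 4.51 to 5.46, detected on 5, 3 and 0 of the 12 arrays. The TET2 probe lay at 4.56 to 4.87 and was detected on no array. No probe was listed for TET3. Whether these genes differed between the lines was not detectable with these probes.

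Without NTKO replicate 2 all 6 tested members passed between NTKO and TKO (45.7% of all probes then passed), HELLS, ZBTB24, DNMT1 and UHRF1 lower and CDCA7L and DNMT3B higher. Between NTKO and WT 5 of the 6 passed (32.8% of all probes), each but DNMT1. ZBTB24, UHRF1 and DNMT3B then set NTKO apart from all 3 other lines (18% of all probes), with DNMT3B higher. HELLS and CDCA7L missed that pattern narrowly (adjusted p = 0.0545 and 0.0503). Without NTKO replicate 1 HELLS and UHRF1 no longer passed, and CDCA7L and DNMT3B alone remained of the 4 genes called between NTKO and TKO.

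The wider pathway moved in both directions. Of 93 tested genes from 10 related lists that hold none of the 10 members, 24 passed between NTKO and TKO (25.8%, against 27.5% of all probes), 10 higher and 14 lower, with a median difference of −0.12 against −0.06 over all probes. Between NTKO and WT 4 passed (4.3%, against 7.2%). Without NTKO replicate 2 the counts were 42 and 27 of 95 (44.2% and 28.4%, against 45.7% and 32.8% of all probes). With arrays only centred on their medians the count against TKO was 12. Of all probes 1821 were then called higher and 1507 lower, against 2142 and 2150 in the main fit. With no filter on dim probes the count against TKO was 11. It was 11, 10, 15 and 15 without NTKO replicate 1, NTKO replicate 3, TKO1 replicate 2 and TKO2 replicate 3, and that against WT was 2 without NTKO replicate 1 or 3 or any WT replicate. In the main fit and without NTKO replicate 2 the shares of the lists lay near those of all probes. For the fits with no filter or with another array left out the share of all probes is not given.

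Genes of DNA replication passed in both directions. Of 22 tested S phase genes, 6 were lower and 2 higher in NTKO than in TKO, where 13.8% and 13.7% of all probes were, with a median of −0.2, and without NTKO replicate 2 the counts were 8 and 3. Cyclin E1 (CCNE1), which drives entry into S phase, lay at 7.48, 7.87 and 7.3 in NTKO, at 8.27 to 8.72 in TKO and at 8.33, 8.66 and 8.69 in WT, with no overlap between NTKO and the rest. It differed by −0.98 from TKO (limma, adjusted p = 0.000228) and by −1.01 from WT (adjusted p = 0.0035), or by −1.14 and −1.17 without NTKO replicate 2. The helicase subunit MCM4 (−0.8, adjusted p = 0.0339) and the thymidylate synthase TYMS (−0.53, adjusted p = 0.00177) were lower than in TKO, and the helicase component GINS2 was higher (0.8, adjusted p = 0.00242; 0.89 against WT, adjusted p = 0.0132). MCM4, TYMS and GINS2 without NTKO replicate 2 were at −1.16, −0.62 and 0.75 from TKO, all called. The median S phase gene, set against its WT mean, lay at −0.16, 0.17 and −0.15 on the NTKO arrays, at −0.03 to 0.23 on the TKO arrays and at −0.1 to 0.06 on the WT arrays, so NTKO replicate 2 parted here as it did for UHRF1 and DNMT1. The part of this shift in the HELLS and UHRF1 differences was not tested. The arrays measured bulk RNA, in which fewer cells in S phase and less RNA per cell cannot be told apart.

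Of 7 tested partners of maintenance methylation 1 passed between NTKO and TKO, where 27.5% of all probes did. LIG1, the ligase that seals replicated strands and binds UHRF1, was lower in NTKO than in TKO (−0.58, limma, adjusted p = 0.00543), and the other 6, PCNA and USP7 among them, did not pass. Of 16 SNF2 remodelling ATPases, relatives of HELLS, 1 passed, the recombination factor RAD54L (−0.51, adjusted p = 0.0435). Of 16 genes of heterochromatin silencing 2 passed, both lower. Each of these 3 lists held a smaller share of calls than all probes. TRIM28, the corepressor of KRAB zinc finger proteins, lay at 8.48, 9.92 and 8.64 in NTKO, 9.62 to 10.56 in TKO and 9.69 to 9.97 in WT, a difference of −1.09 from TKO (adjusted p = 0.00601), and MORC2 differed by −0.43 (adjusted p = 0.0451). NTKO replicate 2 again lay inside the range of the other lines for TRIM28. Without it LIG1, TRIM28 and MORC2 were at −0.63, −1.55 and −0.57 from TKO, all called, and RAD54L, at −0.35, no longer passed (adjusted p = 0.113).

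Readers, erasers and the methyl donor pathway gave rises and falls. Of 6 methyl-CpG readers, ZBTB4 (0.5, limma, adjusted p = 0.0476) and ZBTB33 (0.42, adjusted p = 0.0258) were higher in NTKO than in TKO and none lower. Of 13 genes of oxidation and base excision 3 were higher and 1 lower, where 13.7% and 13.8% of all probes were. IDH1, which makes the 2-oxoglutarate that TET enzymes use, lay at 11.46, 8.92 and 11.55 in NTKO, at 8.36 to 9.23 in TKO and at 9.08, 9.08 and 9.04 in WT, so its difference of 1.78 from TKO (adjusted p = 0.0118) came from replicates 1 and 3. GADD45A, a stress protein tied to demethylation, was higher by 1.06 (adjusted p = 0.00121), and CXXC5, a zinc finger protein of the CXXC family, differed by −0.59 from TKO (adjusted p = 0.0087) and −0.63 from WT (adjusted p = 0.038). IDH2, the mitochondrial counterpart of IDH1, passed against WT alone, at 0.79 (adjusted p = 0.0276). Of 5 genes of methyl donor supply, MTRR, which reactivates methionine synthase, was higher (0.49, adjusted p = 0.013) and MAT2A, which makes S-adenosylmethionine, was lower at the threshold (−0.55, adjusted p = 0.0499). All 7 genes named here against TKO were again called the same way without NTKO replicate 2, with IDH1 at 2.65, GADD45A at 1.4 and MAT2A at −0.89, and IDH2 differed from WT by 0.98 (adjusted p = 0.000482).

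Of 3 known inducers of CDCA7, MYC did not share its pattern. It lay at 12.15, 12.32 and 12.21 in NTKO, at 11.42 to 11.97 in TKO and at 12.13, 12.16 and 12.25 in WT, higher in NTKO than in TKO (0.54, limma, adjusted p = 0.0028), where CDCA7 was lower. NTKO and WT overlapped for MYC and both stood above TKO. NOTCH1 lay at 5.04, 6.24 and 4.88 in NTKO, detected on 2 of 3 arrays, at 6.08 to 7.17 in TKO, and at 4.84 to 5.16 in WT, detected on 1 of 3, so that its NTKO and WT levels were partly at background and no size is given for the difference. E2F1, detected on 5 of 12 arrays, differed by −0.05 (adjusted p = 0.783). Of the 5 other CDCA genes, which share a name for cell division cycle association and not a family, CDCA3 was higher in NTKO than in TKO (0.81, adjusted p = 0.000678) and CDCA2 lower (−0.47, adjusted p = 0.0137). MYC, CDCA3 and CDCA2 without NTKO replicate 2 were at 0.5, 0.86 and −0.5, all called.

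Germline genes that promoter methylation keeps silent gave little to measure. Of 14 listed, 13 had probes, 9 were detected on no array, and only TDRD1, which acts in the piRNA pathway of germ cells, was tested. It differed by −0.02 between NTKO and TKO (limma, adjusted p = 0.934; −0.09, adjusted p = 0.694 without NTKO replicate 2).

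**Figure D4:**
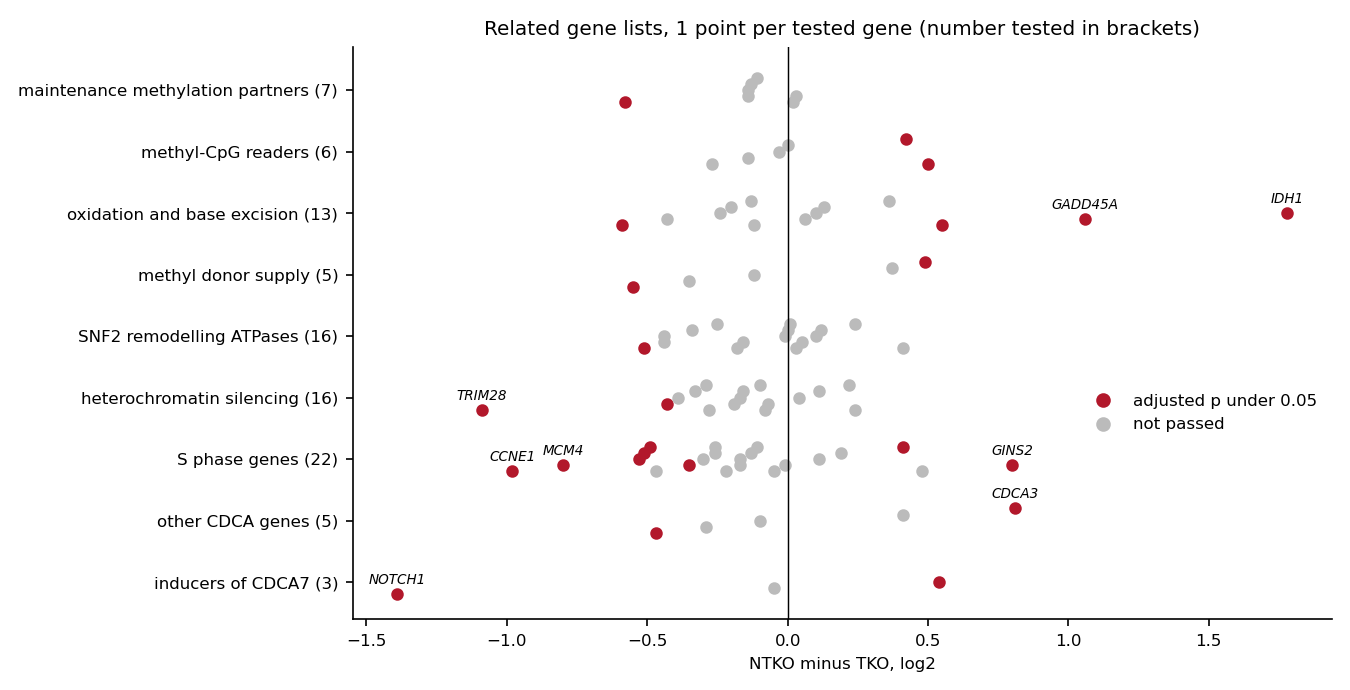
Difference in log2 intensity, NTKO minus TKO (x axis), of each tested gene in 9 related lists (y axis, with the number tested), red where the adjusted p was under 0.05 and grey otherwise; names are given beyond 0.75 in either direction. Red points lie on both sides of 0, and IDH1 (1.78) and NOTCH1 (partly at background in NTKO) lie farthest out.

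Genes beside CDCA7 on chromosome 2 were set next to it as a description. Of the 10 nearest tested genes on each side, 7 of 20 passed between NTKO and TKO (27.5% of all probes did), 3 higher and 4 lower, and 3 between NTKO and WT (7.2%). Without NTKO replicate 2 the counts were 8 (45.7% of all probes) and 6 (32.8%). Without NTKO replicate 3 the count against TKO was 3, and the share of all probes is not given for that fit. MAP3K20, the stress kinase ZAK next to CDCA7 on one side, was higher by 0.52 (limma, adjusted p = 0.00792; 0.67 without NTKO replicate 2), and SP3, a transcription factor next to it on the other, differed by −0.14 (adjusted p = 0.486). WIPF1, an actin regulator of blood cells 3 tested genes away, lay at 6.21, 6.34 and 6.16 in NTKO, at 10.01 to 10.76 in TKO and at 9.08, 8.87 and 8.76 in WT. It was low in NTKO against both, by −4.17 from TKO (adjusted p = 4.43e-11) and −2.67 from WT (adjusted p = 3.32e-07), and NTKO replicate 2 did not part from the others there (−4.24 and −2.73 without it).

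CHRNA1, a subunit of the muscle acetylcholine receptor, lay at 5.44, 7.18 and 5.44 in NTKO, at 8.71 to 9.15 in TKO1, at 6.73 to 7.22 in TKO2 and at 7.24 to 7.36 in WT, with differences of −1.92 from TKO (limma, adjusted p = 0.000266) and −1.27 from WT (adjusted p = 0.0422). HOXD13, a homeobox gene, was lower against both as well (−0.58, adjusted p = 0.0125, and −0.7, adjusted p = 0.0306). CHN1, a Rac GTPase activating protein, was higher than in TKO (1.27, adjusted p = 0.000627) and differed by −0.6 from WT (adjusted p = 0.171). METAP1D, a mitochondrial aminopeptidase, was called lower than in TKO (adjusted p = 0.0236) but was detected on 1 of 3 NTKO arrays, so no size is given. CHRNA1, HOXD13 and CHN1 without NTKO replicate 2 were at −2.51, −0.77 and 0.86 from TKO, all called, and CHN1 then passed against WT too (−1.02, adjusted p = 0.000165). The integrin chain ITGA6 had a mean level of 5.46 in NTKO, detected on all 3 arrays, and of 4.79 in TKO, where it was detected on none. Set against the lowest detected intensity of the TKO arrays, its NTKO level was at least 1.29-fold higher (adjusted p = 0.0173, and 0.0493 without NTKO replicate 2). Of the 20 genes 13 did not pass between NTKO and TKO, and their median difference was −0.07. WIPF1, CHRNA1 and HOXD13, lower in NTKO against both TKO and WT, lay on the same side of CDCA7. Of these CHRNA1 also differed between the TKO clones (TKO1 minus TKO2 1.85, limma, adjusted p = 0.0221). Its level on NTKO replicate 2 lay inside the TKO2 range. A shift of the whole region was not tested.

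**Figure D5:**
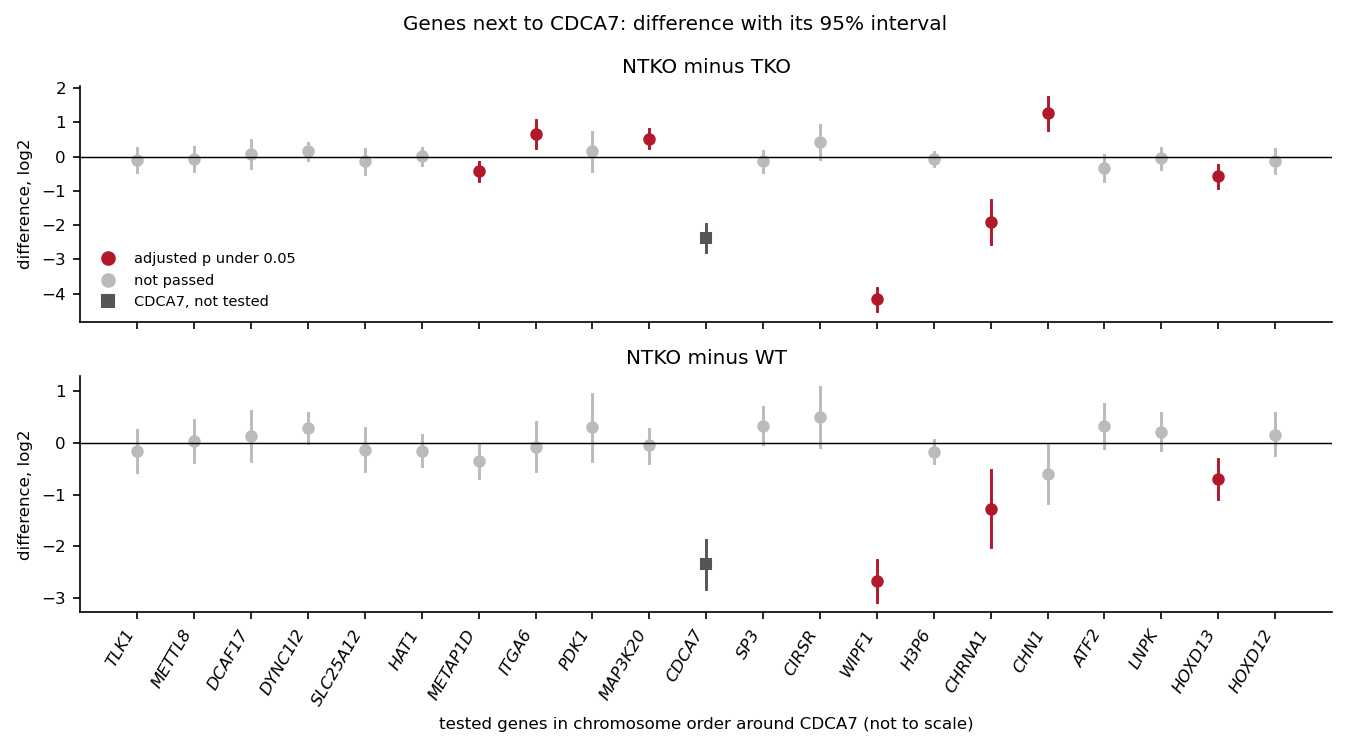
Difference in log2 intensity (y axis) with 95% intervals from limma for CDCA7 (square, not tested) and the 10 nearest tested genes on each side, in chromosome order and not to scale (x axis), for NTKO minus TKO above and NTKO minus WT below. The CDCA7 interval describes the spread between arrays and is no test, since the level of CDCA7 chose the set. WIPF1 and CHRNA1 are low in NTKO in both panels, with SP3 and MAP3K20, directly beside CDCA7, near or above 0 against TKO.

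Genes with the profile most like CDCA7 over the 12 arrays were ranked by Pearson's r among 9856 genes, as a description of 4 lines with 3 arrays each. The 10 most alike had r of 0.959 to 0.983 and were TGDS, MYCBP2, KCTD8, CCDC106, NUP62, RBM47, NEK6, ARGLU1, TM9SF2 and PTOV1. Of these 4, TGDS, MYCBP2, ARGLU1 and TM9SF2, lie on chromosome 13, which holds 1.82% of the ranked genes. What this shared location means for their likeness was not tested. TGDS, a dehydratase of sugar nucleotides, lay at 7.3, 7.7 and 7.22 in NTKO, at 8.46 to 8.68 in TKO and at 8.3 to 8.42 in WT. Like CDCA7 it was low in NTKO alone, with NTKO replicate 2 highest of its line. MYCBP2, a ubiquitin ligase known to bind MYC, lay at 7.1, 7.87 and 7.33 in NTKO, and the nuclear pore protein NUP62 at 11.21, 11.89 and 11.19. The most opposed were SPINK2, a protease inhibitor (r = −0.99), HOPX, CREB5, MAP2 and ANXA1 (−0.974). HOPX, a homeodomain cofactor, lay at 9.72, 8.29 and 9.63 in NTKO against 4.45 to 4.54 in TKO, where it was detected on no array, and 4.82 to 5.32 in WT.

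The order depended on the measure. None of the 10 was among the first 10 by Spearman's rho, and 1 was among the first 10 by Pearson's r without NTKO replicate 2. Among the members HELLS had the highest r over the 12 arrays, at rank 494 (r = 0.8, and 0.81 without NTKO replicate 2), followed by ZBTB24 at 848 (0.74, and 0.88), UHRF1 at 974 (0.71, and 0.85) and DNMT1 at 2761 (0.44, and 0.6). Without that array ZBTB24 and UHRF1 were ahead of HELLS. DNMT3B (−0.74) and CDCA7L (−0.8) ranked 9082 and 9442.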

How the data were processed

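RNA of the 4 lines was measured on Illumina HumanWG-6 v3 arrays. The authors exported them with GenomeStudio (submitters' processing notes), its version not given in the sources used here, and deposited an export. This deposited file gives for 48803 probes an intensity, not normalised, and a detection p-value. Intensity values normalised by the authors were deposited too and served as an alternative. The study's methods speak of 6 arrays a side, the labels of 3 for NTKO.

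Background correction and quantile normalisation of these values (neqc, offset 16, limma 3.58.1, statmod 1.5.0, R 4.3.3) gave log2 levels. Through the platform annotation and RefSeq, 27578 probes had 1 gene, 13 several and 21212 none. Probes with a detection p-value under 0.05 on all 3 arrays of any line were tested (15596), and the one with the highest mean stood for its gene. A limma model of line means on 12 arrays (eBayes with trend and robust settings) gave two-sided p-values, adjusted by Benjamini-Hochberg over all tested probes at a threshold of 0.05. NTKO was called apart where the largest of its 3 pairwise p-values passed. The fit was tested on simulated data.

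Members and lists were chosen with earlier results of these data known. At most 4 called genes were named per list, by size of difference, with those most like CDCA7 and those called beside it. Alternatives changed the background correction, scaling, values, filter, probes per gene, moderation, samples fitted, replicate block and array left out, or used the methods' t-test. No slide was named in the files.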

Additional observations from a re-analysis of the deposited data

Results flagged for a closer look

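On the second brightest of the 3 detected DNMT3B probes, TKO2 replicate 1 stood apart from the other TKO arrays. It lay at 7.53, where the other 5 were at 7.07 to 7.22, and this gap made up 0.657 of the whole range of the 6 arrays, above the 95% critical value of Dixon's test. Chance gives such a gap in about 1 in 20 groups, and 11 probes were examined. On the brightest DNMT3B probe the same array lay at 7.62, inside the TKO range of 7.38 to 7.68.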

How the results depend on the processing

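Median centring moved the median of all probes to −0.18 for NTKO minus WT and −0.15 for TKO minus WT, against −0.03 and 0.04 with quantile normalisation. Under it TKO minus WT turned to −0.05 for ZBTB24 and −0.12 for DNMT1, and the third DNMT3B probe turned to −0.08 for NTKO minus WT. Between NTKO and TKO 12 list genes passed in place of 24. Of all probes 1821 were called higher and 1507 lower there, against 2142 and 2150 with quantile normalisation. With no filter on dim probes 11 list genes passed there and 2 between NTKO and WT, and 1 member, DNMT3B, passed between TKO and WT. With the compared lines fitted alone 1 list gene passed between NTKO and WT. Shares of all probes are not given for the fits with no filter or with the compared lines alone. The methods' t-test called 2 members (CDCA7L and DNMT3B) at p under 0.002, as it did 1497 of all 15596 probes. After Benjamini-Hochberg adjustment it called the same 2 members and 2526 of the 15596 probes. HELLS, at −0.64, had an adjusted p of 0.0612 by that test. UHRF1 lost its call with no filter (adjusted p = 0.0776) and with the compared lines alone (adjusted p = 0.0583).

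Leaving out each array in turn, 2 to 6 members passed between NTKO and TKO, 0 to 5 between NTKO and WT, 1 to 2 between TKO and WT, and 0 to 3 apart from all lines. The 6, 5 and 3 came without NTKO replicate 2, where 45.7%, 32.8% and 18% of all probes passed. Shares of all probes are not given for the other arrays left out. HELLS ran from −0.79 to −0.49 against TKO and from −0.53 to −0.22 against WT. List genes called ran from 10 to 42 against TKO and 2 to 27 against WT, and neighbours of CDCA7 from 3 to 8. The 42, the 27 and the 8 were also reached without NTKO replicate 2. For NTKO minus WT the sign turned for DNMT1 (−0.32 to 0.09), the dimmer UHRF1 probe (−0.38 to 0.1) and the third DNMT3B probe (−0.11 to 0.42), none of them called. The number of arrays limits what can be seen: 1 array decides most NTKO counts.

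The list and neighbour values without NTKO replicate 2 and the medians by scaling were added after seeing the data. With line means removed, 6 of 18 same-numbered pairs of arrays from different lines correlated above 0.1 (−0.14 to 0.5, median 0.06). Of differently numbered pairs 5 of 36 did (−0.5 to 0.18, median −0.02). The main fit did not pair arrays by replicate number, and whether the numbers mark a pairing was not tested. With the replicate number as a block 4, 0 and 2 members passed between NTKO and TKO, NTKO and WT, and TKO and WT, as without it. The dimmer UHRF1 probe then passed between NTKO and TKO (−0.6, adjusted p = 0.0416), and 26 and 6 list genes passed against TKO and WT. Shares of all probes are not given for the fit with this block.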
